A study of Mus musculus with 203 samples.

Results

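The 8 genes described here were the arginine transporter gene Slc7a2, Nos2, Ass1, Asl, Odc1, Srm, Sat1 and the amino acid oxidase gene Il4i1. They were chosen by gene symbol, with no threshold on a measured value but with earlier results of these data known, and all 8 were found among the 25094 genes of the RAW cell RNA-seq table and among the 16478 genes of the bone marrow-derived macrophage (BMDM) table. The BMDM table, made from WT and Gps2 KO cells, gives only the authors' own comparisons and no value per library, so the results below are from RAW cells. RAW264.7 (RAW) is a mouse macrophage cell line, labelled as BALB/c. Its 16 libraries formed 4 groups of 4. Cells with a control hairpin (shGFP) and cells with a hairpin against Kdm1a (shKDM1A) were each left without IL4 or given 20 ng/ml of IL4 for 6 h. Kdm1a encodes a histone lysine demethylase. Both lines carried a lentiviral hairpin and had been selected as stable lines with puromycin, and Kdm1a was targeted by a single hairpin. The line and the hairpin can therefore not be told apart.

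Macrophages take up arginine through cationic amino acid transporters such as the product of Slc7a2. Nitric oxide synthase (Nos2) turns arginine into nitric oxide and citrulline, and a competing route leads from arginine to ornithine and urea. Ass1 and Asl rebuild arginine from citrulline. Odc1 makes the polyamine putrescine from ornithine, Srm makes spermidine from putrescine, and Sat1 acetylates spermidine and spermine for export or breakdown. Il4i1, named for its induction by IL4, is a secreted oxidase that acts mainly on aromatic amino acids. In mouse macrophages Nos2 is a standard marker of the state induced by LPS and interferon gamma.

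The 250 bases before the start of the RefSeq transcript are shown for the 2 genes that rose with IL4 in both lines, Il4i1 and Ass1. They were read 5′ to 3′ on the gene's own strand from the mm9 mouse genome. The windows are chr7:52091408-52091657 (plus strand) for Il4i1 and chr2:31325540-31325789 (plus) for Ass1. Capitals mark a match to a searched motif.
Il4i1: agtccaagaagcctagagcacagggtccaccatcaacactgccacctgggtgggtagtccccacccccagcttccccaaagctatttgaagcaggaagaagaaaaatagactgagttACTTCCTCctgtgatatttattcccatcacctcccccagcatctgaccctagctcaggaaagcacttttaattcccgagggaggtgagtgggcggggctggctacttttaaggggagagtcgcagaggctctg
Ass1: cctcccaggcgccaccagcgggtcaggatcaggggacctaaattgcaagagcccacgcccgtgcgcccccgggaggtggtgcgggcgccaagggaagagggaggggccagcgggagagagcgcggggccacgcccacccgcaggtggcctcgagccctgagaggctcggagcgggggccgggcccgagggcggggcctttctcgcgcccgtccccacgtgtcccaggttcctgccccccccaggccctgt
Both strands were searched for TTCNNNNGAA, the spacing that STAT6 prefers, for TTCNNNGAA, the spacing of other STAT factors, and for GAGGAAGT, a PU.1 motif. The first was found in none of the 8 member windows and in 5.54% of the 25015 windows read across the table. The second was found in none of the 8 and in 6.78% of all windows, and the third only in that of Il4i1, from base -133 on the opposite strand, and in 2.32% of all windows. A window without a match lacks only these letters at this distance. The 2 printed windows differ in base composition. G and C made up 53.2% of the window of Il4i1 and 75.6% of that of Ass1, against a median of 54.8% over all windows. The Il4i1 window held 3 CpG and that of Ass1 23, and the median window held 9.0. Of the windows not printed, Odc1 had the highest share of G and C at 80.0%, with 35 CpG, followed by Srm at 74.8% and Slc7a2 at 72.4%.

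The RAW libraries held 17554721 to 27782568 tags (median 21444949). Their values are on a log2 scale, on which a difference of 1 is a doubling. The authors' transformation is not named, and where it draws weakly expressed genes towards their mean, a difference may understate the change in reads. Kdm1a was lower in shKDM1A cells by 0.88 ± 0.028 (SE) without IL4 and by 0.79 ± 0.028 with IL4, so that its level decreased by 45.8% without IL4 and decreased by 42.0% with it (limma, Benjamini-Hochberg adjusted p = 5.6e-13 and 2.2e-12). Macrophage markers reached a log2 value of 17.16, while all 7 T and NK cell, all 3 B cell, all 4 fibroblast, 4 of 5 neutrophil and 3 of 4 endothelial and epithelial markers had a mean under 1 in every group. Of the 10 macrophage markers listed, Mertk was also under 1. The summed linear level of those 10 differed between the groups, at 207587 to 214552 in shGFP cells, 166363 to 168925 with IL4, 237133 to 242317 in shKDM1A cells and 222093 to 237343 with IL4. Such a sum is carried by the most abundant markers. Of the 9 markers tested 2 rose and 3 fell with IL4 in shGFP cells (adjusted p under 0.05), and 3 rose and 4 fell in shKDM1A cells. In shKDM1A cells 5 were higher and 4 lower than in shGFP cells without IL4, and 6 were higher and 3 lower with it. The IL4 effect differed between the lines upwards for 3 and downwards for 2. Of all genes tested 26.9%, 27.1%, 38.2%, 40.7% and 6.13% passed in these 5 comparisons. The part of these markers in the results below was not tested. Fewer cells of a kind and less RNA per cell cannot be told apart in such bulk libraries. The study's methods speak of biological replicates in general, but neither they nor the labels say that the 4 libraries of a group came from separate cultures, so the p-values may measure only technical spread between them.

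Levels of different genes are compared here only after subtraction of log2 of the exon length in kilobases. On that scale the polyamine genes stood highest in shGFP cells without IL4, with Srm at 12.12 ± 0.043 (SD, n = 4), Odc1 at 11.21 ± 0.010 and Sat1 at 10.16 ± 0.062. They lay above 97.4%, 94.6% and 87.8% of the 12905 genes tested. Asl followed at 8.46 ± 0.018. Ass1 (5.54 ± 0.062) and Il4i1 (5.37 ± 0.048) lay above 25.6% and 24.4% of the genes tested. Slc7a2 (-0.59 ± 0.0022) lay above 0.9% of them and Nos2 (-1.62 ± 0.019) above 0.1%. The order was the same in the other groups with 1 exception. Il4i1 (5.93 ± 0.034) stood above Ass1 (5.83 ± 0.021) in shGFP cells with IL4, and in shKDM1A cells with IL4 the libraries of Ass1 (6.10 ± 0.064) and Il4i1 (6.00 ± 0.084) overlapped.

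**Figure D1:**
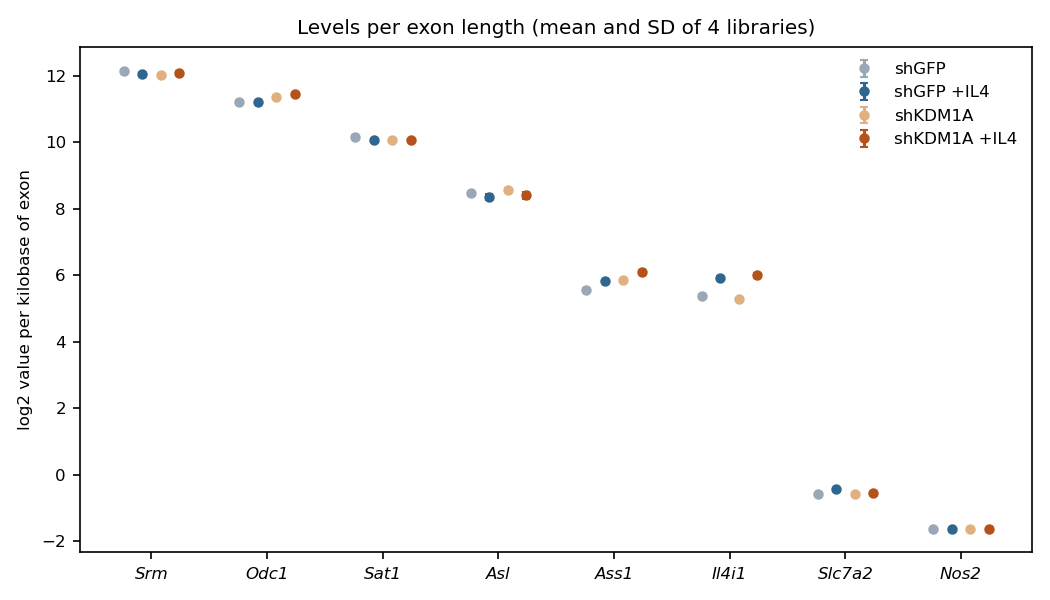
Level of the 8 genes per exon length (log2 value minus log2 of kilobases, vertical axis) in the 4 groups, as the mean of 4 libraries with the SD, which is mostly smaller than the point. Srm, Odc1 and Sat1 stand above 10, and Slc7a2 and Nos2 below 0 in every group.

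To see which of the 8 genes responded to IL4, groups with and without IL4 were compared in each line with limma, over the 12905 genes that reached a log2 value of 1 in 4 libraries or more. Of the 8 members 7 were tested, and Nos2 was not. In shGFP cells 3 of the 7 rose, 1 fell and 3 did not pass an adjusted p of 0.05, where 26.9% of all genes tested passed (13.1% higher and 13.7% lower). In shKDM1A cells 4 rose, 1 fell and 2 did not pass, where 27.1% of all genes passed (13.6% higher and 13.5% lower). The median log2 difference of the 7 was 0.0025 in shGFP cells and 0.077 in shKDM1A cells, beside -0.0005 and -0.0025 over all genes tested. The groups of libraries did not overlap for 4 of the 7 in either line, against 28.3% and 25.7% of all genes. The shKDM1A line was then compared with the shGFP line. Without IL4, 2 members were higher, 3 were lower and 2 did not pass (38.2% of all genes passed, 19.7% higher and 18.4% lower), with a median of -0.0004 beside -0.0027 over all genes. With IL4, 2 were higher, 1 was lower and 4 did not pass (40.7% of all genes passed, 20.9% higher and 19.8% lower), with a median of 0.045 beside -0.0024. The groups did not overlap for 5 of the 7 without IL4 and for 3 of the 7 with it, against 37.4% and 36.4% of all genes. The direction in which more of all genes passed depended on the scaling. Quantile normalization gave 2225 higher and 2929 lower without IL4 and 2384 higher and 2917 lower with it, in place of 2548 and 2379 and of 2694 and 2561. Median centring went the other way between the lines with IL4, with 2972 higher and 2274 lower. For IL4 in shKDM1A cells it gave 2025 higher and 1560 lower, in place of 1752 and 1745. The difference of the IL4 effect between the lines passed for 2 of the 7, upwards for 1 and downwards for 1, where 6.13% of all genes passed (3.56% upwards and 2.57% downwards). These 5 comparisons share groups, so their counts are not independent of each other.

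**Figure D2:**
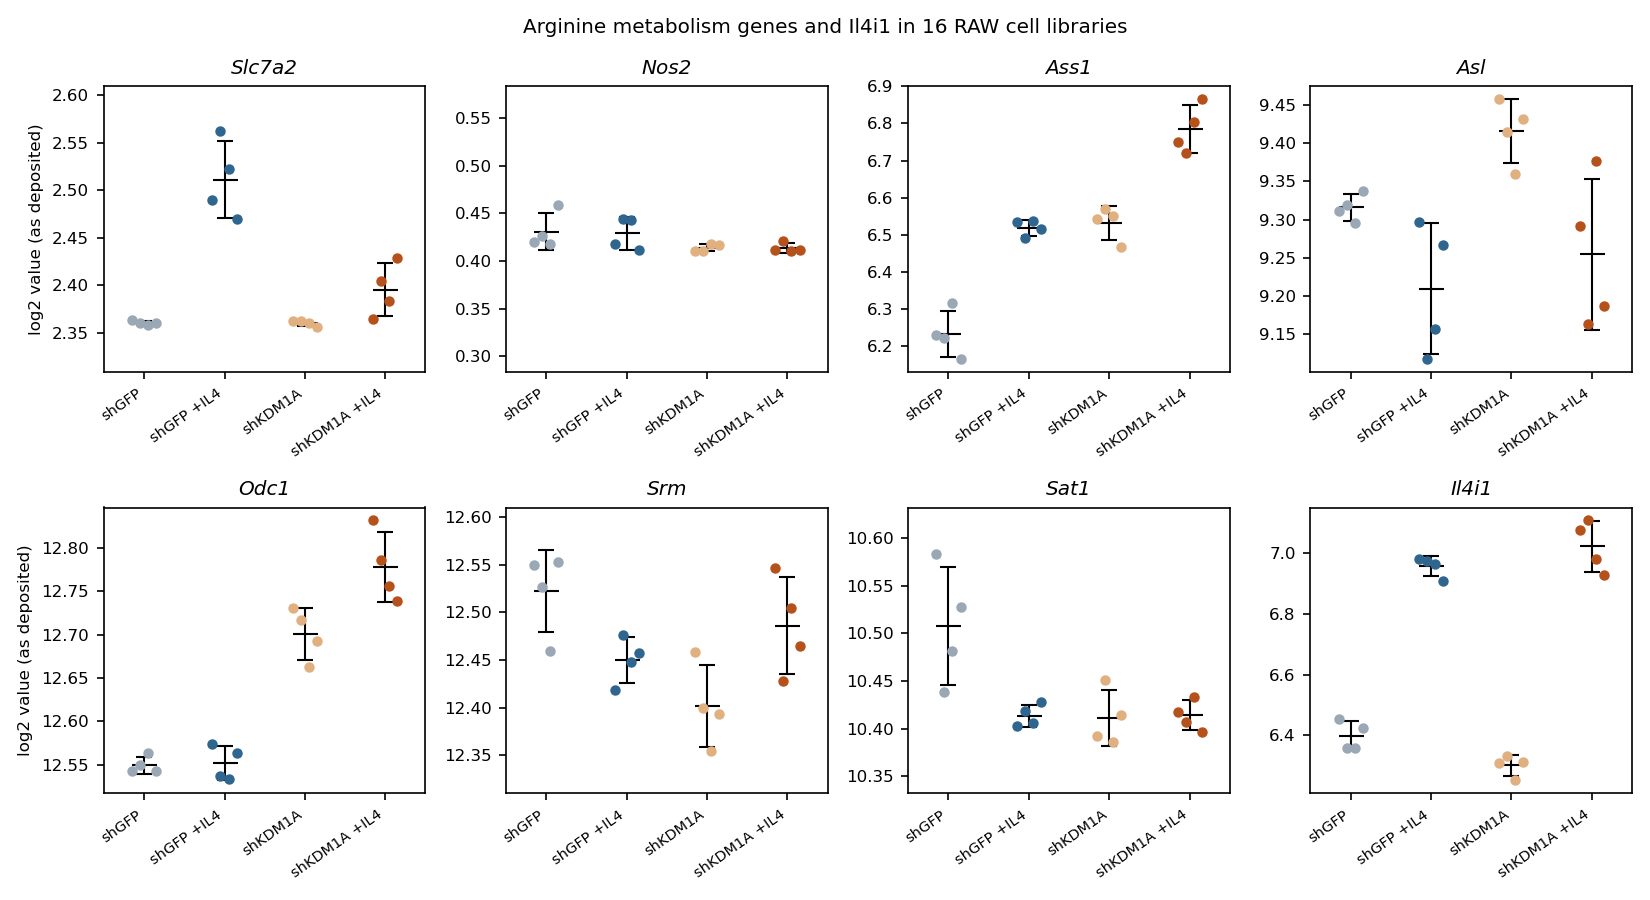
Log2 values (as deposited, vertical axes, which differ between panels and do not start at 0) of the 8 genes in the 16 RAW cell libraries, with each point a library and the bar its group's mean and SD (n = 4). Il4i1 and Ass1 are higher in all IL4 libraries than in those of the same line without IL4, and all Nos2 values lie between 0.41 and 0.46.

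Il4i1, the amino acid oxidase gene, had the largest IL4 effect of the members in both lines. Its log2 values in shGFP cells were 6.46, 6.36, 6.36 and 6.42 without IL4 and 6.98, 6.97, 6.96 and 6.91 with it. In shKDM1A cells they were 6.31, 6.33, 6.25 and 6.31 without IL4 and 7.08, 7.11, 6.98 and 6.93 with it. Every library with IL4 was above every library without it. The difference was 0.56 ± 0.036 (SE) in shGFP cells, a rise of 47.2% (adjusted p = 4.8e-09), and 0.72 ± 0.036 in shKDM1A cells, a rise of 64.8% (adjusted p = 2.3e-10). These were larger than the differences of 99.4% and 99.7% of all genes tested. The IL4 effect was 0.16 ± 0.051 greater in shKDM1A cells (95% confidence interval 0.055 to 0.27), which did not pass (adjusted p = 0.068, and 0.019 to 0.18 under the alternatives tried). Without IL4, Il4i1 was 0.097 ± 0.036 lower in shKDM1A cells (adjusted p = 0.043), and no library of one line overlapped those of the other. That call was lost when any 1 of 5 libraries was left out (adjusted p of 0.067 to 0.13), without the filter on low values (0.12) and with a trended prior variance (0.063). With IL4 the lines overlapped, and the difference was 0.066 ± 0.036 (adjusted p = 0.16, and 0.030 without replicate 4 and 0.43 without replicate 2 of the shKDM1A cells with IL4).

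Il4i1 lies at chr7:52091658-52096179 on the plus strand of mm9, and 4516 bases of it lie inside Il4i1b (chr7:52071740-52096173, same strand). The last 34 bases, some of them also within Il4i1b, overlap the antisense gene Tbc1d17. The authors' counting used both strands, so reads from the shared exons cannot be assigned to one gene. Il4i1b, listed as a separate gene, stood at 8.20 ± 0.050 (SD) in shGFP cells, 8.55 ± 0.068 with IL4, 8.24 ± 0.069 in shKDM1A cells and 8.58 ± 0.080 with IL4. Its IL4 effect was 0.35 ± 0.044 (SE) in shGFP cells and 0.34 ± 0.044 in shKDM1A cells (adjusted p = 1.4e-05 and 2.1e-05). Without IL4 its difference between the lines was 0.042 ± 0.044 (adjusted p = 0.50). Whether the Il4i1 and Il4i1b effects differ from each other was not tested.

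Slc7a2, which encodes the cationic amino acid transporter CAT2, was weakly expressed, and its IL4 effect was larger in shGFP than in shKDM1A cells. Its 8 libraries without IL4 lay between 2.357 and 2.364, with an SD of 0.0022 in shGFP and 0.0028 in shKDM1A cells. The SD was 0.040 and 0.028 with IL4. The SEs below come from 1 spread shared by all 4 groups, so they do not show this inequality. Whether the values without IL4 lie at a floor of the transformation was not tested. With IL4 the shGFP libraries reached 2.49, 2.56, 2.52 and 2.47 and the shKDM1A libraries 2.36, 2.40, 2.38 and 2.43. All 4 shGFP libraries with IL4 were above all other 12. Slc7a2 rose by 0.15 ± 0.020 in shGFP cells (adjusted p = 2.9e-05). In shKDM1A cells the difference was 0.035 ± 0.020, which did not pass (95% confidence interval -0.0080 to 0.078, adjusted p = 0.23, and p = 0.029 in the exact permutation test) although the 4 values with IL4 were above the 4 without it. The IL4 effects of the lines differed by -0.12 ± 0.029 (adjusted p = 0.027), a call lost without replicate 3 of the shGFP cells with IL4 and without replicate 1 or 3 of the shKDM1A cells with IL4 (adjusted p of 0.053 to 0.055). With IL4, Slc7a2 was 0.12 ± 0.020 lower in shKDM1A cells (adjusted p = 0.00024).

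Nos2, the inducible nitric oxide synthase gene, was listed at a value under 1 in every library. The lowest value was 0.41 and the highest 0.46, both over all 16 libraries. It was not tested with the other members because no library reached a value of 1. In a fit over all 25094 genes the largest difference was 0.017 ± 0.0093 lower in shKDM1A cells without IL4 (adjusted p = 0.34). At this level no change of Nos2 with IL4 or between the lines was detectable.

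Ass1, which encodes argininosuccinate synthase, differed in all 4 pairwise comparisons. Its values were 6.23, 6.22, 6.32 and 6.17 in shGFP cells without IL4, 6.53, 6.49, 6.54 and 6.52 with IL4, 6.54, 6.57, 6.55 and 6.47 in shKDM1A cells without IL4, and 6.75, 6.72, 6.80 and 6.87 with IL4. The shGFP libraries with IL4 and the shKDM1A libraries without it overlapped. Each group with IL4 was above its own line without it, and each shKDM1A group was above its shGFP counterpart. The IL4 effect was 0.29 ± 0.034 in shGFP and 0.25 ± 0.034 in shKDM1A cells (adjusted p = 8.3e-06 and 3.3e-05). The effect of shKDM1A was 0.30 ± 0.034 without and 0.27 ± 0.034 with IL4 (adjusted p = 3e-06 and 1.1e-05). The IL4 effects of the lines differed by -0.032, with a 95% confidence interval of -0.14 to 0.071 (adjusted p = 0.75). It lay between -0.060 and -0.010 with single libraries left out and at -0.0050 under quantile normalization. Ass1 was the only member that passed in all of these 4 comparisons when all libraries were fitted, and its 4 calls held under every alternative tried.

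Asl, which encodes argininosuccinate lyase, the next enzyme, passed in 1 of the 4 pairwise comparisons. Its values ran from 9.30 to 9.34 in shGFP cells without IL4, from 9.12 to 9.30 with IL4, from 9.36 to 9.46 in shKDM1A cells without IL4 and from 9.16 to 9.38 with IL4. The libraries with IL4 were more spread than those without it (SD of 0.086 and 0.099 against 0.018 and 0.042). Asl fell by 0.16 ± 0.045 with IL4 in shKDM1A cells (adjusted p = 0.013, reaching 0.05 without the filter on low values, and 0.057 in the exact permutation test), with overlapping groups. In shGFP cells the difference was -0.11 ± 0.045 (adjusted p = 0.095, and 0.045 without replicate 1 of the shGFP cells with IL4). Without IL4 the shKDM1A libraries were all above the shGFP libraries, and the difference was 0.10 ± 0.045 (adjusted p = 0.094). It passed in a fit of only the 2 groups compared (adjusted p = 0.0085) and in the two-sided exact permutation test (p = 0.029, the smallest possible).

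Odc1, the gene of ornithine decarboxylase, was higher in shKDM1A cells with and without IL4. In shGFP cells its values were 12.54, 12.55, 12.56 and 12.54 without IL4 and 12.57, 12.54, 12.53 and 12.56 with it. In shKDM1A cells they were 12.73, 12.72, 12.66 and 12.69 without IL4 and 12.83, 12.79, 12.76 and 12.74 with it. All 8 shKDM1A libraries were above all 8 shGFP libraries. The difference between the lines was 0.15 ± 0.022 (11.0%) without IL4 and 0.23 ± 0.022 (16.9%) with it (adjusted p = 3.6e-05 and 4e-07), and quantile normalization brought the first to 0.098 (adjusted p = 0.0020). IL4 moved Odc1 by 0.0025 ± 0.022 in shGFP cells (adjusted p = 0.96) and raised it by 0.077 ± 0.022 in shKDM1A cells (adjusted p = 0.014). The latter call was lost without replicate 3 of the shKDM1A cells or replicate 1 of the shKDM1A cells with IL4 (adjusted p = 0.053 and 0.051), and in a fit of only the 2 groups compared (0.065). The difference of the IL4 effects, 0.074 ± 0.031, did not pass (adjusted p = 0.16).

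Srm, which encodes spermidine synthase, had an IL4 effect that differed between the lines and a lower level in shKDM1A cells without IL4. Its values were 12.55, 12.53, 12.46 and 12.55 in shGFP cells, 12.42, 12.48, 12.45 and 12.46 with IL4, 12.46, 12.40, 12.35 and 12.39 in shKDM1A cells and 12.55, 12.43, 12.50 and 12.46 with IL4. In both lines the libraries with and without IL4 overlapped. The IL4 difference was -0.072 ± 0.029 in shGFP cells (adjusted p = 0.079, passing at 0.031 under quantile normalization and at 0.029 without replicate 3 of the shGFP cells) and 0.084 ± 0.029 in shKDM1A cells (adjusted p = 0.041). The 2 effects differed by 0.16 ± 0.041 (adjusted p = 0.034). That call was lost when any 1 of 11 of the 16 libraries was left out (adjusted p of 0.051 to 0.073) and without the filter on low values (0.085). The IL4 call in shKDM1A cells was lost when any 1 of 5 libraries of that line was left out (adjusted p of 0.078 to 0.13), without the filter (0.094), under quantile normalization (0.10), in a fit of only the 2 groups compared (0.089) and in the exact permutation test (0.057). Without IL4, Srm was 0.12 ± 0.029 lower in shKDM1A cells (adjusted p = 0.0035) and the lines did not overlap.

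Sat1, which encodes the polyamine acetyltransferase, was highest in shGFP cells without IL4, at 10.58, 10.44, 10.48 and 10.53. The other 3 groups lay together, from 10.40 to 10.43 in shGFP cells with IL4, from 10.39 to 10.45 in shKDM1A cells and from 10.40 to 10.43 in shKDM1A cells with IL4. IL4 lowered Sat1 by 0.094 ± 0.026 in shGFP cells (adjusted p = 0.013), with no overlap. In shKDM1A cells the difference was 0.0031 ± 0.026 (adjusted p = 0.96). Without IL4, Sat1 was 0.097 ± 0.026 lower in shKDM1A cells (adjusted p = 0.0072, and p = 0.057 in the exact permutation test), and 1 pair of libraries from the 2 lines overlapped. The difference of the IL4 effects, 0.097 ± 0.037, did not pass (adjusted p = 0.13, and 0.046 without replicate 2 of the shGFP cells).

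**Figure D3:**
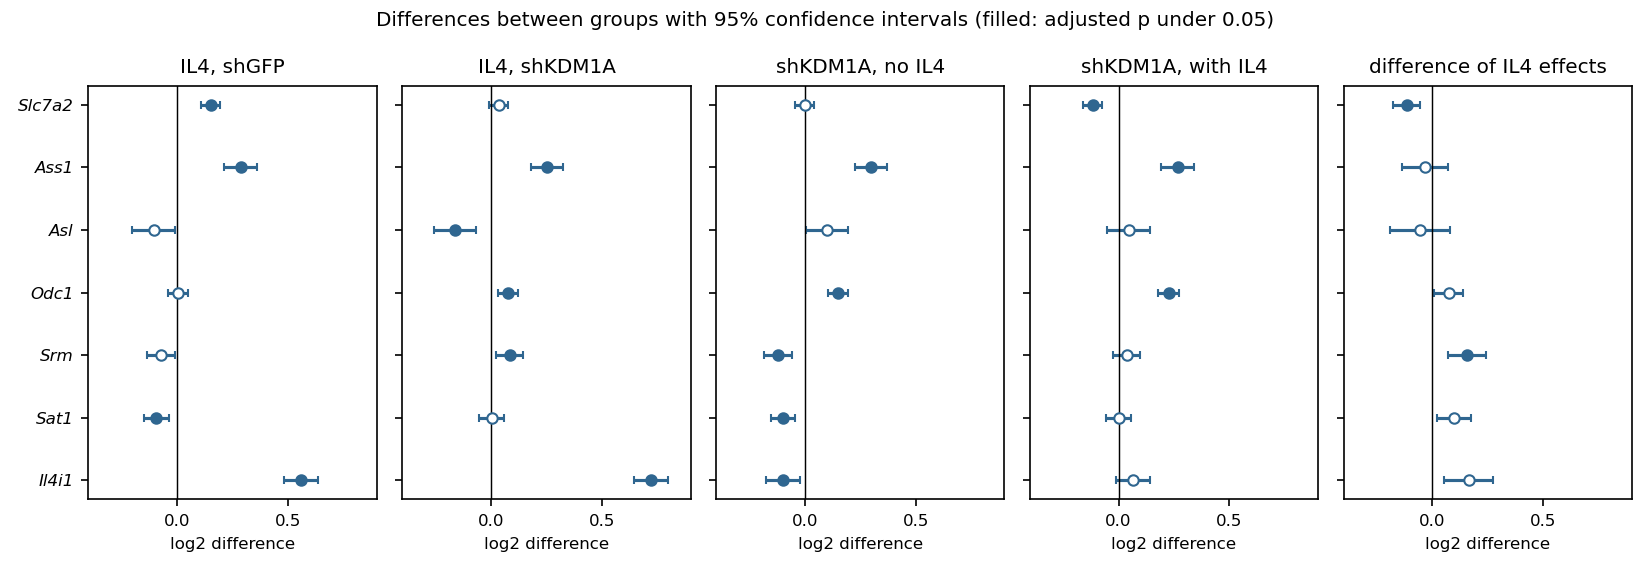
Log2 differences (horizontal axis) with 95% confidence intervals for the 7 members tested, in the 5 comparisons named above each panel, with filled points for an adjusted p under 0.05. Il4i1 lies farthest to the right in the panels of IL4 in both lines, and only Slc7a2 and Srm are filled in the panel of the difference of IL4 effects.

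The plot of IL4 effects shows Il4i1 above the line of equal effects, Ass1 close to it and Slc7a2 below it. Srm, Odc1 and Sat1 lay near 0 in both lines, with differences from -0.094 to 0.084.

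**Figure D4:**
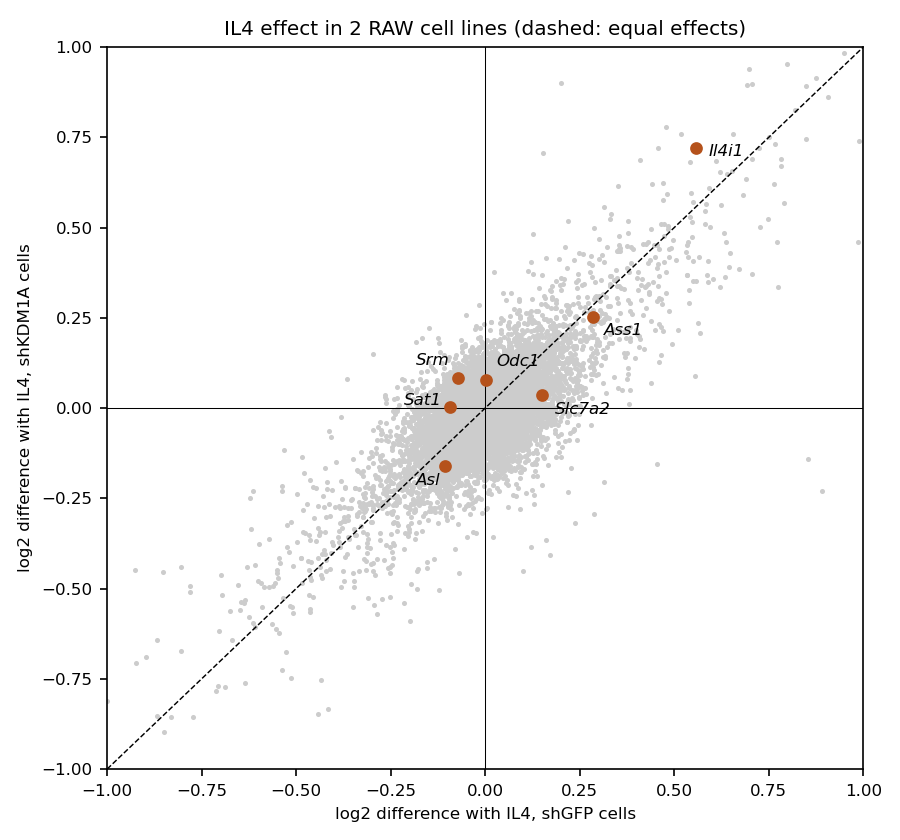
Log2 difference with IL4 in shGFP cells (horizontal axis) and in shKDM1A cells (vertical axis) for the genes tested (grey) and the 7 members tested (orange), with a dashed line of equal effects. Il4i1 (0.56 and 0.72) stands above the line and Slc7a2 (0.15 and 0.035) below it, and 31 genes lie outside the axes.

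The patterns most like that of Il4i1 over the 16 libraries, by Pearson correlation (r), were those of Pdgfa (r = 0.984), Vim (0.984), Casp6 (0.983), Nectin3 (0.983) and Smad6 (0.981). Pdgfa, a growth factor gene, went from 8.32 to 9.17 with IL4 in shGFP cells and from 8.21 to 9.11 in shKDM1A cells. These values are a description over 16 libraries in 4 groups and carry no test.

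The members were then set beside other genes of the same pathways. The counts in these lists stand beside the shares of all genes tested that passed, which were 26.9% for IL4 in shGFP cells, 27.1% for IL4 in shKDM1A cells, 38.2% and 40.7% between the lines without and with IL4, and 6.13% for the difference of the IL4 effects. Lists of this size can lie near those shares, as the nitric oxide genes did between the lines without IL4 (3 of 8). Of 10 further genes of arginine transport, the urea cycle and agmatine 5 were tested, since the urea cycle genes Cps1, Otc and Nags, together with Agmat and Slc7a3, had a mean under 1 in every group. IL4 raised 3 of the 5 in shGFP cells, namely Slc3a2, the heavy chain that carries several amino acid transporters (0.31 ± 0.020, adjusted p = 5.6e-09), Azin2 (0.31 ± 0.045, adjusted p = 7e-05), an antizyme inhibitor gene listed here for its older name of arginine decarboxylase, and Slc7a7 (0.12 ± 0.036, adjusted p = 0.020). In shKDM1A cells 2 rose and 1 fell, with Slc3a2 at 0.069 ± 0.020 (adjusted p = 0.018), Azin2 at 0.26 ± 0.045 and the main arginine transporter gene Slc7a1 at -0.21 ± 0.045 (adjusted p = 0.0022). The IL4 effects of the lines differed for Slc3a2 by -0.24 ± 0.029 (adjusted p = 0.00014) and for Slc7a1 by -0.26 ± 0.063 (adjusted p = 0.023), the same sign as for Slc7a2. The other 3 of the 5 did not pass, and agreement of sign with Slc7a2 was not tested. Slc7a7 was lower in shKDM1A cells by 0.32 ± 0.036 without and 0.39 ± 0.036 with IL4 (adjusted p = 2.7e-06 and 2.7e-07). In the comparison of the lines 2 of the 5 were higher and 2 lower without IL4, and 3 were lower with it.

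Of 9 further genes of nitric oxide synthesis and its cofactor tetrahydrobiopterin 8 were tested. IL4 raised 1 and lowered 2 in shGFP cells and raised 1 in shKDM1A cells, and the IL4 effects of the lines passed for none of the 8 in limma, with 2 at an unadjusted p under 0.05. Gch1, the rate-limiting enzyme gene of the cofactor, was higher in shKDM1A cells by 0.38 ± 0.031 without IL4 and 0.44 ± 0.031 with it (adjusted p = 6.1e-08 and 7.4e-09), beside Nos2 values that stayed under 1. In shKDM1A cells 2 of the 8 were higher and 1 was lower, both without and with IL4.

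Of 10 genes that lead from ornithine to proline, glutamate or creatine, all tested, IL4 raised 3 and lowered 3 in shGFP cells, and raised 1 and lowered 1 in shKDM1A cells. Aldh18a1, which starts proline synthesis from glutamate, rose by 0.22 ± 0.021 in shGFP cells (adjusted p = 4.7e-07), and Oat, the aminotransferase that removes ornithine, fell by 0.20 ± 0.030 (adjusted p = 0.00012). The IL4 effects of the lines differed for Aldh18a1 (-0.24 ± 0.030, adjusted p = 0.00017) and Pycr1 (-0.24 ± 0.061, adjusted p = 0.027). In shKDM1A cells 3 of the 10 were higher without IL4, and 2 were higher and 2 lower with it.

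Of 15 further polyamine genes, all tested, IL4 raised 1 and lowered 3 in shGFP cells and raised 2 and lowered 3 in shKDM1A cells. Between the lines 6 were higher and 4 lower in shKDM1A cells without IL4, and 8 were higher and 3 lower with it. Antizymes inhibit ornithine decarboxylase, and antizyme inhibitors counter them. The antizyme gene Oaz2 was higher by 0.47 ± 0.045 without IL4 and 0.49 ± 0.045 with it (adjusted p = 4.2e-07 and 2.3e-07) and the antizyme inhibitor gene Azin1 was higher by 0.27 ± 0.027 without IL4 (adjusted p = 4.8e-07). Smox, the spermine oxidase gene, was 0.39 ± 0.037 higher with IL4 (adjusted p = 3.5e-07), and Paox, the acetylpolyamine oxidase gene that acts after Sat1, was 0.21 ± 0.029 lower without IL4 (adjusted p = 2.1e-05). Amd1 and Amd2, which supply the aminopropyl group used by Srm, were listed with nearly the same values (11.57 in both without IL4 in shGFP cells). Their reads can therefore not be assigned to one of them, and both were 0.21 lower without IL4 (adjusted p = 1.6e-05). The counts of lower genes between the lines, without and with IL4, hold both as separate genes. The IL4 effects of the lines differed for 2 of the 15, both upwards as for Srm. These were Eif5a (0.17 ± 0.032, adjusted p = 0.0048), whose product carries a spermidine-derived residue, and Oaz1 (0.16 ± 0.039, adjusted p = 0.025). Agreement of sign with Srm was not tested, and the Srm call was lost when single libraries were left out.

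Of 17 genes of tryptophan and phenylalanine products and of the aryl hydrocarbon receptor (AHR), through which products of Il4i1 are known to act, 8 were tested. IL4 raised 1, the large amino acid transporter gene Slc7a5 (0.22 ± 0.019, adjusted p = 2.2e-07), and lowered 1, Tiparp, an AHR target (0.16 ± 0.024, adjusted p = 5.9e-05), in shGFP cells. In shKDM1A cells IL4 lowered 1, again Tiparp (0.18 ± 0.024, adjusted p = 2.2e-05). Ahr stood at 2.63 to 2.70 by group, and the AHR targets Cyp1a1 and Cyp1b1 had a mean under 1 in every group. Without IL4, 3 of the 8 were higher and 1 lower in shKDM1A cells, with Tiparp higher by 0.32 ± 0.024 (adjusted p = 1.4e-08), and with IL4 2 were higher. The IL4 effects of the lines differed for Slc7a5 (-0.18 ± 0.027, adjusted p = 0.0010).

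Of 13 genes of the IL4 pathway, all tested, IL4 raised 6 and lowered 2 in shGFP cells and raised 4 and lowered 2 in shKDM1A cells. The feedback inhibitor genes Socs1 and Cish rose in shGFP cells by 0.71 ± 0.053 and 0.38 ± 0.020 (adjusted p = 3e-08 and 2.7e-10). The difference of the IL4 effects passed for 3 of the 13, downwards for 2 and upwards for 1. Those of Socs1 and Cish were smaller in shKDM1A cells by 0.33 ± 0.074 and 0.19 ± 0.028 (adjusted p = 0.015 and 0.00078). Il13ra1, a receptor chain for IL4, fell by 0.20 ± 0.039 with IL4 in shGFP cells (adjusted p = 0.00082). Its mean was 8.91 without and 8.97 with IL4 in shKDM1A cells, and the signed IL4 effects differed by 0.26 ± 0.055 (adjusted p = 0.010). It was 0.58 ± 0.039 lower in shKDM1A cells without IL4 (adjusted p = 3.7e-09), and Il2rg, another receptor chain, 0.47 ± 0.030 higher (adjusted p = 2e-09). In shKDM1A cells 5 of the 13 were higher and 3 lower without IL4, and 4 were higher and 6 lower with it.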

How the data were processed

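RNA from RAW264.7 cells was sequenced in 4 groups of 4 libraries. Per the labels and the paper, reads were aligned to mm9 with HISAT2 and counted by HOMER on RefSeq exons, on both strands, and DESeq2 compared groups. The deposited values are log2 values made by the authors, not counts. The transformation is not named in the sources used here. The tables' exon lengths, in bases, are other deposited values. The authors' own log2 fold changes and p-values in both tables were not used, so the planned BMDM comparisons could not be run. The members and gene lists were chosen with earlier results of these data known. All members are named, save 2 members and 1 gene of another list, which are not reported here and are left out of the counts. Of other lists, up to 3 genes each way with the largest called change could be named, and the 5 genes most correlated with Il4i1 were named. Values were fitted as deposited, with no pseudocount, in 1 group-means model (limma 3.58.1, R 4.3.3, Benjamini-Hochberg adjustment per comparison, threshold 0.05), on the 12905 of 25094 genes whose log2 value was 1 or more in 4 libraries or more. The fit was tested on simulated data of 12905 genes, with normal noise whose spread for a gene was the same in every group. It recovered 199 of 200 genes changed in shGFP cells with IL4, with 8 false calls in that comparison. For shKDM1A against shGFP cells with IL4 it recovered 197 of 200, with 10. For the difference of the IL4 effects it recovered 187 of 200, with 6. The smallest change planted was larger than most of the member differences called, so recovery of such small differences was not tested. Promoter windows were read from NCBIM37 (mm9). Alternatives were other filters, scalings, fits, a replicate block, leaving out each library and a two-sided exact permutation test, whose smallest p is 0.029 for 4 against 4. Depth is the total per library in the file header. The precision for weakly expressed members was not tested against it.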

Additional observations from a re-analysis of the deposited data

Results flagged for a closer look

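The IL4 effect differed between shKDM1A and shGFP cells, by a test of the difference itself, for 2 members. It differed by -0.12 for Slc7a2 (0.035 against 0.15, adjusted p = 0.027) and by 0.16 for Srm (0.084 against -0.072, adjusted p = 0.034). Both calls were lost when single libraries were left out, as given above.

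1 of the 32 groups of member values held a library far from the others, Nos2 in replicate 2 of the shKDM1A cells with IL4, at 0.42 where the next value was 0.41. This kind of comparison marks about 1 group in 20 by chance, and both values are under the level set for testing.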

How the results depend on the processing

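Of the 35 member results 19 were called, and 12 of the 19 kept their direction and their side of the threshold under every alternative with a value. No member result changed direction where it was called. With a log2 value of 5 required in 4 libraries or more, the members called numbered 1 rather than 2 for the difference of the IL4 effects, since Slc7a2 was then not tested. Without a filter, with more genes tested, the difference of the IL4 effects passed for 431 rather than 791 genes and for 1 member rather than 2, and IL4 in shKDM1A cells for 3 members rather than 5. A fit of only the 2 groups compared also gave 3 for IL4 in shKDM1A cells. With each library left out in turn, the members called numbered 3 to 5 for IL4 in shKDM1A cells, with 3 without replicate 3 of the shKDM1A cells or replicate 1 of the shKDM1A cells with IL4. They numbered 0 to 3 for the difference of the IL4 effects in limma, with 0 without replicate 3 of the shGFP cells with IL4 and without replicate 1 or 3 of the shKDM1A cells with IL4. That number was 1 without replicate 1 or 4 of the shGFP cells, replicate 1 or 4 of the shGFP cells with IL4, or replicate 2, 3 or 4 of the shKDM1A cells. Any pairing of the libraries by replicate number was weak. Over the 4 pairwise comparisons, 1 of 16 same-numbered pairs of libraries had deviations from the group means that correlated above 0.1 (-0.092 to 0.27). In 8 of the 16 the own number gave the highest correlation among 4 candidates, and whether this exceeds chance was not tested. A replicate block gave 3430, 3459, 4882, 5212 and 732 called genes in the 5 comparisons and changed no call of a member. By the exact permutation test 3 member calls lay above 0.05, at 0.057: Asl and Srm for IL4 in shKDM1A cells and Sat1 without IL4. Conversely, 2 results that limma did not call reached 0.029, Slc7a2 for IL4 in shKDM1A cells and Asl without IL4. Quantile normalization and leaving out replicate 4 of the shKDM1A cells with IL4 each brought the Il4i1 difference of IL4 effects past the threshold (adjusted p = 0.029 and 0.019). The cause was not tested. The alternatives planned for BMDMs could not be run, as the table gives no value per library. Slc7a2 and Nos2 had the lowest values of the members, so a small change in either may not be detectable at this depth.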
